A study of Arabidopsis thaliana with 8 samples.

Results

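The response of wild-type Arabidopsis shoots to 2 h at 37 °C was described across genes, with the chaperones set to one side. It rests on 4 ATH1 arrays, 2 of heated shoots against 2 of control shoots, out of 8 arrays in the series. These 4 were chosen by their titles, and all 22746 probe sets that are not array controls belong to the comparison. The 15919 probe sets left after removal of the dimmest 30% were tested, 8790 of them paired with 1 gene. Plants were of the Col-0 ecotype with no transgene named, 15 days old, and kept for 2 h at 37 °C or at 22 °C before harvest with no recovery time. Each array read RNA from its own pool of about 100 plants, per the series design. The other 4 arrays, from shoots of an Hsa32 knockout mutant at the same age and temperatures, entered the fit to estimate the spread between arrays, and are set beside wild type only where named. The labels of control replicate 1 disagree, since its title calls it a control and its source line mentions heat shock alone. It was used as a control, by its title.

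Heat unfolds proteins, and plant cells answer through heat shock factors, which switch on chaperone genes within minutes. Outside the chaperones, the response of green tissue is known to reach proteins that clear damaged proteins from the endoplasmic reticulum or tag them with ubiquitin, lipid-binding proteins that protect membranes, and transcription factors held in the endoplasmic reticulum until it is stressed. Growth, cell wall and defence genes are commonly lowered at the same time, while mitochondria and plastids keep small genomes of their own whose transcripts are made and trimmed inside the organelle.

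The shoot label was checked against marker genes. RCA (Rubisco activase) read 18061 and 16090.2 in the controls and 21781 and 31410.0 after heat, and the light-harvesting gene LHCB4.1 read 21855 and 21467 in the controls and 22556 and 39993 after heat. A signal is not comparable between probe sets as a transcript level, so these values show only that leaf genes were read well. Of markers of other organs, the root and hypocotyl gene PYK10 read 3231 and 9286 in the controls and 2095 and 5230.3 after heat, the root-hair expansin EXPA18 at most 121, and the seed genes OLEO3 and PAP85 at most 97.7 and 148. None of these 6 genes passed the heat test, and a change in the number of cells of a type cannot be told apart from a change of RNA per cell in whole shoots. The spread between replicates was wider after heat. Of the tested probe sets 1878 (11.8%) differed by more than 2-fold between the controls and 4180 (26.3%) between the heated arrays.

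With all arrays in the fit and replicate numbers left out of it, more probe sets passed higher than lower after heat, and by larger changes. In limma 406 of 15919 probe sets passed at an adjusted p under 0.05 (2.55% of those tested). Of these, 293 were higher (1.84%) and 113 lower (0.71%). Among the higher ones 250 rose at least 4-fold, 87 at least 16-fold and 39 at least 64-fold, whereas 65 of the lower ones fell at least 4-fold and 1 fell at least 16-fold. The median log2 fold change was 3.07 among the higher probe sets and -2.10 among the lower, against -0.22 over all tested. In signal, the higher probe sets went from a median of 273 in the control mean to 4614 in the heated mean, and the lower from 816 to 172. All 406 had heated arrays that did not overlap the controls, a condition that 13% of all tested probe sets met upward and 30.5% downward. A further 510 probe sets lay above 1 on the log2 scale and 1711 lay below -1 without passing. The split of the calls moved with the scaling. Centring each array on its median added 0.32 to the median log2 fold change and gave 385 higher and 47 lower.

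**Figure D1:**
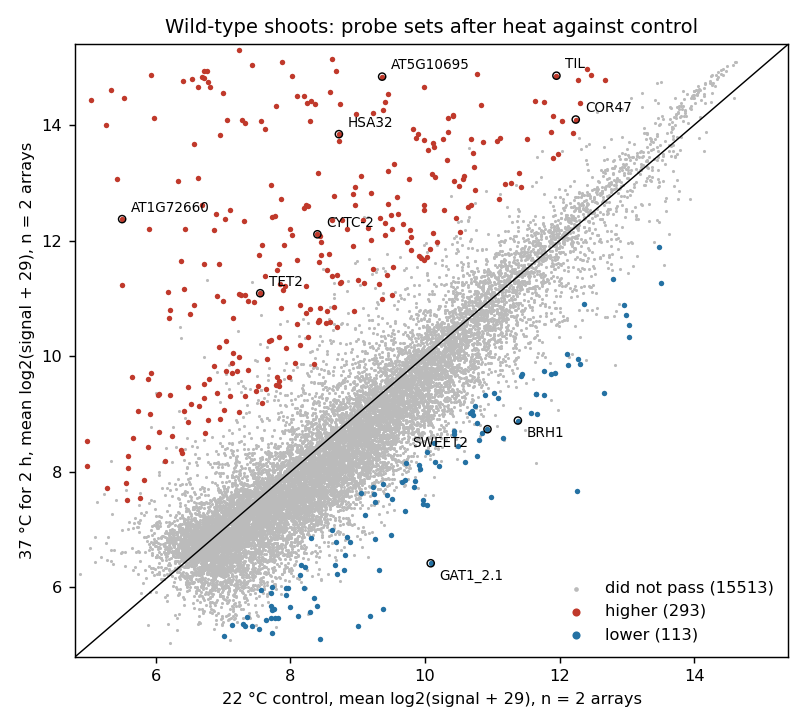
Each point is a tested probe set, with the mean log2(signal + 29) of the 2 control arrays on the horizontal axis and of the 2 heated arrays on the vertical axis. The 293 higher probe sets (red) lie far above the line of equality over the whole range of control levels, while the 113 lower ones (blue) lie closer to it.

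The higher probe sets took a large share of the signal on the heated arrays. Summed over the array, they held 1.44% and 1.13% of all signal in the controls and 13.01% and 14.7% after heat. Of the higher probe sets, 115 are paired with 1 gene and were not matched to a chaperone. These held 0.49% and 0.386% in the controls and 3.60% and 3.85% after heat. Most of them have no symbol, so unmatched chaperones may be among them. The lower probe sets went from 1.16% and 1.44% to 0.293% and 0.202%. On this measure the conditions lie far apart and the replicates close together. The number of probe sets above a signal of 20000 was 17 and 14 in the controls and 72 and 152 after heat, which differed between the heated replicates. Since these probe sets were chosen by the same contrast, the shares describe the calls and are no further test.

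The lower calls depended on single arrays far more than the higher ones. With each wild-type array left out in turn, 144 of the 293 higher probe sets kept their call in all 4 fits, and 6 of the 113 lower. The count of higher calls was 151 without control replicate 2 and 473 without heated replicate 1. The count of lower calls was 71 without control replicate 1, 9 without control replicate 2, 841 without heated replicate 1 and 66 without heated replicate 2. Leaving out a knockout array, which changes only the estimate of the spread, gave 42 lower calls for either control and 51 for either heated array. The wild-type arrays of replicate 1 stood apart from the other 6 on the second principal component. Without both of them 393 probe sets were higher and 485 lower, and 258 of the 293 and 81 of the 113 kept their call. Which direction holds more calls therefore depends on the arrays used.

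**Figure D2:**
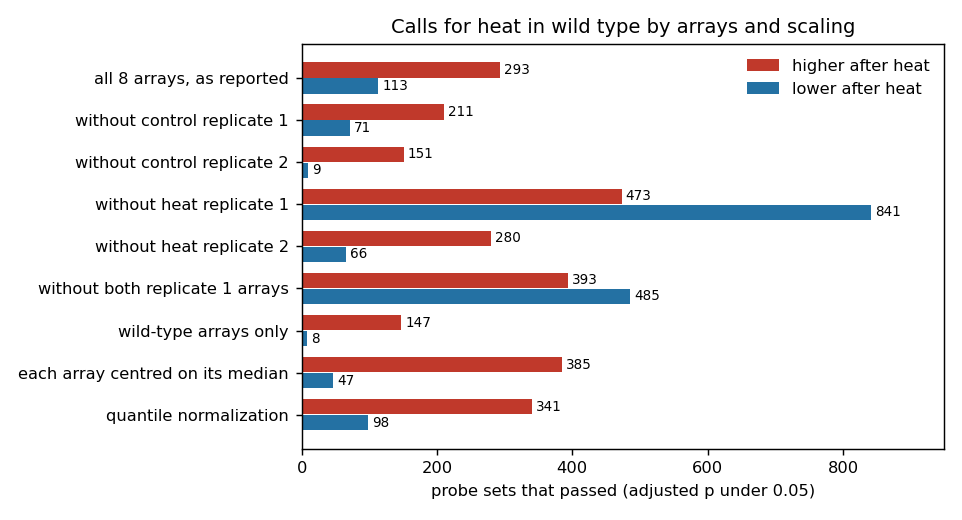
Bars give the number of tested probe sets that passed higher (red) or lower (blue) in wild type, for the full set of arrays, with wild-type arrays left out, with the wild-type arrays alone, and with other scalings. Fits with a replicate block are not shown. The lower count runs from 8 to 841 across these settings and the higher count from 147 to 473.

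Of the 293 higher probe sets 141 had 1 gene, 146 had none paired with them here and 6 had several. Of the 141, 26 were matched to chaperones or close partners of chaperones, a set completed after values were seen. Only 22 of the 141 have a symbol, so chaperones without one may lie outside that set. The 20 highest rises outside that set, ranked by fold change, ran from 4.33 to 6.87 on the log2 scale. Only 1 of these 20, HSA32, has a symbol in the annotation used, and the others are given by locus without a role. The choice by call and fold change puts the heated arrays of all 20 above the controls, at 1488 to 32608 against 5.5 to 728. All 20 kept their call under each of the 21 alternatives run.

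The highest of them, AT1G72660, read 11.4 and 21.6 in the controls and 7613 and 3641 after heat. Both controls lie under the offset of 29, so its log2 fold change of 6.87 ± 0.44 (limma adjusted p = 7.6e-05) depends on that offset. AT1G21550 read 266 and 53.6 in the controls and 16099 and 18496 after heat, a change of 6.79 ± 0.58. Its control replicates differ several-fold, and its heated replicates lie together. AT5G07330 went from 67.6 and 37.5 to 5898 and 11696 (6.70 ± 0.52), and AT1G30070 went from 337 and 67.8 to 14460.4 and 20409 (6.51 ± 0.57). In AT5G10695, which read 544 and 728 in the controls and 26152 and 32608 after heat (5.47 ± 0.39, limma adjusted p = 1.4e-04), both replicates of each condition lie close together. So do those of AT3G07150, with 79.1 and 73.2 in the controls and 3105 and 3028 after heat (4.88 ± 0.32). HSA32, a heat-stress-associated protein, read 657 and 230.0 in the controls and 23175 and 9240.3 after heat (5.12 ± 0.57), with replicate 1 above replicate 2 in both conditions. The locus AT1G16040 was read by 2 probe sets, which rose by 4.66 and 2.21, so the size of its rise depends on the probe set. The others were AT1G66080 (6.30), AT1G67360 (6.12), AT5G25450 (6.11), AT5G12110 (5.99), AT4G23493 (5.93), AT3G07090 (5.77), AT1G44414 (5.42), AT5G35320 (4.99), AT5G19875 (4.68), AT5G18340 (4.46), AT5G42150 (4.37) and AT4G15680 (4.33).

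Probe sets that already gave strong signals in the controls rose too. AT3G10020 went from 7086 and 4434 to 24354 and 36214 (2.40 ± 0.37, limma adjusted p = 0.011), with heated arrays several times the controls. AT1G52870 went from 5150.5 and 2819 to 15516 and 21132 (2.24 ± 0.36) and AT5G54940 from 5372 and 4737 to 18739 and 24018 (2.07 ± 0.31). AT5G47610 rose by 3.73 and AT4G33660 by 3.77. Of the 10 rises with the brightest heated signal among calls paired with 1 gene and outside the chaperones, 5 kept their call with every wild-type array left out. All 5 that lost it did so without control replicate 2, among them AT3G10020 (adjusted p = 0.12).

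Protein clearance and membrane genes were among the rises with a symbol. DER1 (Derlin-1), a membrane protein of the endoplasmic reticulum through which misfolded proteins are removed, read 653 and 396 in the controls and 3825 and 7172 after heat. It rose by 3.29 ± 0.41 (limma adjusted p = 0.003) and kept its call with each wild-type array left out. SK18, an SKP1-like protein of the kind that joins F-box proteins to ubiquitin ligases, went from 324 and 314 to 1508 and 2129 (2.39 ± 0.33, adjusted p = 0.0056), and lost its call without control replicate 2 (adjusted p = 0.057). SAY1 read 394 and 532 in the controls and 3851 and 3755 after heat, with heated replicates that nearly coincide (2.98 ± 0.35, adjusted p = 0.0023).

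TIL, the temperature-induced lipocalin, a small lipid-binding protein of the plasma membrane with a known part in heat tolerance, was bright before heat and read 4429 and 3494 in the controls and 25129 and 34708 after heat. It rose by 2.90 ± 0.41, or 7.46-fold (limma adjusted p = 0.0064), with an adjusted p of 0.074 without control replicate 2. TET2, a tetraspanin, a membrane protein with several passes, went from 144 and 174 to 2489 and 1855 (3.54 ± 0.33, adjusted p = 6.6e-04). PCME, an esterase that removes the methyl group from prenylated cysteines, went from 376 and 214 to 2013 and 1561 (2.52 ± 0.37, adjusted p = 0.0085) and lost its call without control replicate 2 (adjusted p = 0.092). In TET2, PCME and TIL the groups lie further apart than the replicates within them, which their choice as calls makes likely.

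Among the rises with a symbol, regulators and signalling genes were among the smaller ones. BZIP28, a transcription factor anchored in the endoplasmic reticulum that is released by stress, read 1129 and 773 in the controls and 3428 and 3315 after heat (1.82 ± 0.37, adjusted p = 0.042 in limma). CML23, a calmodulin-like calcium sensor, was dim and read 17.3 and 40.8 in the controls and 169 and 240.4 after heat (2.02 ± 0.39, adjusted p = 0.032). COR47, a dehydrin of cold, drought and abscisic acid responses, read 3542 and 6518 in the controls and 19099 and 15938 after heat (1.85 ± 0.34, adjusted p = 0.025). All 3 lost their call with some wild-type array left out. For BZIP28 the adjusted p reached 0.29 without control replicate 2, for CML23 0.15 and for COR47 0.14, both without control replicate 1. In each list they were the only member that passed, of 14 tested bZIP factors (median -0.28, or 0.04 with centred arrays), 12 calcium signalling genes (-0.34, or -0.02) and 10 abscisic acid and dehydration genes (0.25, or 0.57). Beside 1.84% of all tested probe sets called higher, 1 call in a list of this size is no result about the list. The lists rest mostly on symbols, and 7588 of the 8790 tested probe sets with 1 gene have a locus number only. Rises given above by locus may therefore belong to these families.

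**Figure D3:**
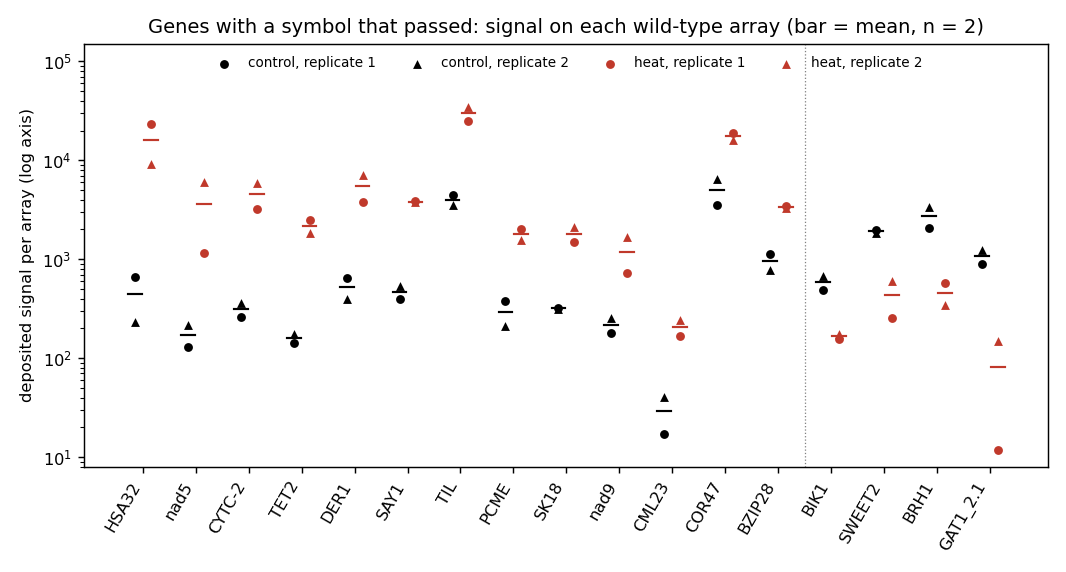
Signal on each wild-type array, on a log axis, for the genes with a symbol that passed outside the chaperones, with circles for replicate 1, triangles for replicate 2 and bars for the mean of 2 arrays. The 13 genes left of the dotted line rose and the 4 on the right fell. They were chosen among calls whose heated arrays did not overlap the controls, so the gap between red and black points follows from that choice.

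Probe sets of the mitochondrial genome lay above 0 throughout, and those of the plastid genome did not. The 21 tested probe sets of genes of the mitochondrial genome, a list formed after values were seen, stood for 15 genes, with 6 probe sets on nad1 and 2 on nad5. All 21 had a log2 fold change above 0, from 0.41 to 3.94 with a median of 2.21, against -0.22 over all probe sets. Only nad5 and nad9 passed, 2 of 21 beside 1.84% of all tested, and 15 of 21 had heated arrays above both controls, beside 13%.

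nad5, a subunit of respiratory complex I, read 129.9 and 216 in the controls and 1160.0 and 6049.5 after heat on the probe set that passed (3.77 ± 0.68, limma adjusted p = 0.023). Its other probe set, at 9.3 and 152 in the controls and 297 and 4946 after heat, had a similar log2 fold change of 3.94 and did not pass. nad9, another subunit of complex I, read 181 and 254 in the controls and 719 and 1670.2 after heat (2.21 ± 0.43, adjusted p = 0.033). In both genes the second heated array is the highest and both heated arrays lie above both controls. cox1 and cox2, subunits of cytochrome c oxidase, read 346 and 626 in the controls and 1458 and 6519.9 after heat and 59.2 and 225 in the controls and 498 and 3612 after heat. Their log2 fold changes of 2.66 ± 0.67 and 3.21 ± 0.97 did not pass (adjusted p = 0.087 and 0.14). nad6 had heated replicates far apart, at 627 and 9378 from 108 and 189 (log2 fold change 3.85 ± 1.05, not passing). At the other end nad7, nad4 and ccb382, a gene of cytochrome c maturation, had log2 fold changes of 0.52, 0.55 and 0.57.

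Replicate 2 read above replicate 1 in 21 of 21 mitochondrial probe sets in the controls and in 21 of 21 after heat, beside 47.9% of all probe sets in either condition. The median mitochondrial signal was 129.9 and 259 in the controls and 441 and 2231 after heat. Both heated medians lie above both control medians, and the heated replicates lie further apart than the controls. Without heated replicate 1 the median log2 fold change was 3.33, whereas without heated replicate 2 it was 1.13. Without control replicate 1 it was 1.72 and without control replicate 2 it was 2.71. Without both arrays of replicate 1 it was 2.87. The direction of the median held in each of these fits, and its size depended on the array, as did which probe sets passed. The replicate 1 arrays are those that stood apart on the second principal component, and the part of that difference in the mitochondrial values was not tested. In heated knockout shoots the median was 2.88, with 9 of 21 called higher, beside 3.13% of all probe sets there.

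CYTC-2, cytochrome c, a nuclear gene for the electron carrier that feeds cytochrome c oxidase, also rose, from 262 and 364 to 3242 and 5929.7 (3.71 ± 0.43, limma adjusted p = 0.0023). It kept its call under every alternative run, and its controls lie together.

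Plastid genes formed the largest list. None of the 68 tested passed, beside 2.55% of all tested probe sets, a share at which few calls would fall in a list of 68. Their median log2 fold change was -0.22, the same as that of all probe sets to 2 decimals, with 25 above 0 and 43 below. With centred arrays it was 0.10, and without heated replicate 1 it was 0.20. They ranged from -1.40 for rps18, a ribosomal protein gene, to 0.93 for psbN. The median plastid signal was 3826 and 4772 in the controls and 3457 and 3260.1 after heat. The photosystem II gene psbK, at 12831 and 7397 in the controls and 13226 and 18598 after heat (0.69 ± 0.35, adjusted p = 0.36), and psbH (0.60) had values above 0, and matK (-1.12) and rpl33 (-1.06) values below. The 69 plastid probe sets held 2.22% and 2.25% of all signal in the controls and 2.05% and 2.39% after heat, against 0.0235% and 0.0470% and then 0.0642% and 0.350% for the 23 mitochondrial ones.

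**Figure D4:**
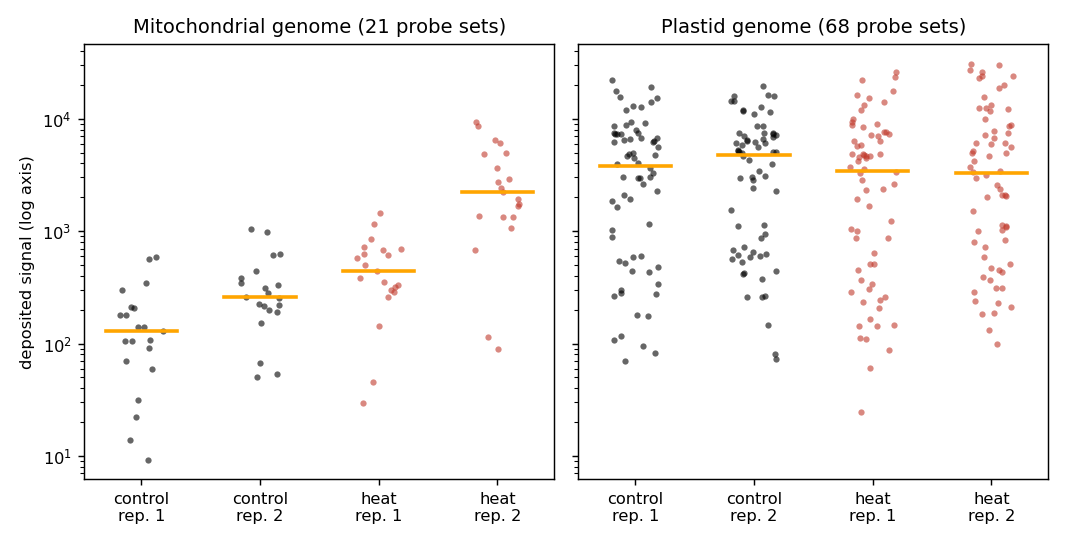
Signal of each tested probe set of the mitochondrial genome (left, 21) and the plastid genome (right, 68) on each wild-type array, on a log axis, with orange bars for the median. The mitochondrial medians run from 129.9 in control replicate 1 to 2231 in heated replicate 2, and the plastid medians lie between 3260.1 and 4772 on all 4 arrays.

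None of the nuclear photosynthesis genes listed here passed, beside 2.55% of all tested probe sets. In lists this small, having no call is no result about these genes. The 7 nuclear photosystem and electron transport genes had a median log2 fold change of 0.45 (0.77 with centred arrays, -0.16 after quantile normalization). That of the 4 light-harvesting and Rubisco activase genes was 0.40 (0.72 with centred arrays, -0.11 after quantile normalization). The sign of both medians therefore depended on the scaling. PSBY, a small subunit of photosystem II, read 17455 and 14525 in the controls and 21065 and 25323 after heat (0.54 ± 0.35, adjusted p = 0.48), and PSAE-1, of photosystem I, 16421 and 16041 in the controls and 19603 and 27659 after heat (0.52 ± 0.33). In both the second heated array is the highest and the first lies just above the controls. Of 10 chlorophyll synthesis genes none passed (median -0.25, or 0.07 with centred arrays). CHLI2, a subunit of the magnesium chelatase, was the lowest at -1.10, with 614 and 481 in the controls and 256 and 222 after heat (adjusted p = 0.14).

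Among the 113 lower probe sets 47 had 1 gene, 4 of them with a symbol. GAT1_2.1, which carries a glutamine amidotransferase domain, fell furthest of these 47. It read 896 and 1245 in the controls and 11.8 and 150.2 after heat and fell in both heated pools, with a nearly dark reading in replicate 1. Its log2 fold change was -3.67 ± 0.61 (limma adjusted p = 0.015), and 0.14 was its adjusted p without control replicate 2. SWEET2, a sugar transporter, read 1993 and 1848 in the controls and 258 and 606 after heat (-2.19 ± 0.45, adjusted p = 0.04), with controls that lie together. BRH1, a RING protein named for its response to brassinosteroids, read 2061 and 3367 in the controls and 571 and 344 after heat (-2.49 ± 0.50, adjusted p = 0.039). BIK1, a cytoplasmic kinase that relays signals from immune receptors, read 486 and 682 in the controls and 158 and 176 after heat (-1.63 ± 0.32, adjusted p = 0.036). In all 4 genes, as in every lower call, the heated arrays lie below both controls. In all 4 the call was lost without control replicate 2.

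Among lower calls paired with 1 gene and outside the chaperones, the 20 lowest log2 fold changes ran from -3.67 to -2.11. Of these 20, 7 kept their call without control replicate 1, 1 without control replicate 2, 20 without heated replicate 1 and 10 without heated replicate 2. The one kept in all was AT2G28200, at 933 and 1008 in the controls and 155 and 134 after heat (-2.53 ± 0.30, limma adjusted p = 0.0023). Its replicates lie close together in both conditions. AT1G13000 read 307 and 310.3 in the controls and 27.6 and 17.1 after heat (-2.72 ± 0.36). Both of its heated values lie under the offset of 29, so the size of its fall depends on that offset. It missed the threshold only without control replicate 2. AT4G28240, with strong control signals, fell from 5034 and 8154 to 1395 and 275 (-3.29 ± 0.68, adjusted p = 0.042), with heated replicates several-fold apart. AT1G54740 went from 4274 and 3218 to 1106 and 577 (-2.17 ± 0.40). AT4G23840 was read by 2 probe sets, and the second, at -0.42, did not pass. The rest of the 20 were AT5G57760, AT1G25400, AT2G19660, AT1G06760, AT1G71970, AT5G49760, AT3G59480, AT1G75990, AT3G12710, AT4G35510, AT1G66890 and AT5G43310.

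A few genes with a symbol had log2 fold changes below -2 that did not pass. ATL8, a RING-type ubiquitin ligase, read 2321 and 4352 in the controls and 705 and 82.3 after heat (-3.49 ± 0.79, adjusted p = 0.061 in limma). BZIP61, a bZIP factor, read 1020.2 and 1902 in the controls and 419 and 171 after heat (-2.25 ± 0.50, adjusted p = 0.058). In both genes the heated arrays lie below both controls, and the heated replicates lie far apart. The expansin EXPA4 (-2.14) and COB (-2.27), a wall protein of oriented cell expansion, were the lowest of 51 listed cell wall and expansion genes. None of these 51 passed, beside 0.71% of all tested probe sets called lower. Called wall genes without a symbol may lie outside this list. The median of this list, -0.37, rested on single arrays and the scaling. It was 0.0027 without control replicate 2, -0.65 without control replicate 1, -0.07 without heated replicate 1 and -0.05 with centred arrays. COB read 971 and 4572 in the controls and 386 and 445 after heat, and its controls are further apart than control replicate 1 and the heated arrays.

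In the remaining gene lists few or no members passed, beside 2.55% of all tested probe sets. Counts of 0 or 1 in lists this small are no result about the families. The lists hold mostly genes with a symbol, so calls given above by locus may belong to these families. Of 48 lists with a member on the array, chaperones included, 46 had a tested member and 9 a member that passed, and 25 lists with 4 or more tested members had none. There was no call among 28 UDP-glycosyltransferases (median -0.06), which attach sugars to hormones and secondary metabolites. UGT76E11 came nearest, from 95.4 and 47.2 to 369 and 272 (1.83 ± 0.44, adjusted p = 0.074 in limma). None passed of 12 cytochrome P450 genes (-0.44, or -0.12 with centred arrays), 11 autophagy genes (0.03, or 0.35), 9 auxin response genes (-0.56, or -0.24), 7 histone genes (-0.45, or -0.13) or 4 WRKY factors (from -1.77 to -0.31). Nor did any of 10 vesicle traffic genes (-0.61), most of them subunits of the exocyst, which tethers secretory vesicles. There 8 of 10 lay below 0 and 6 of 10 had heated arrays below both controls, beside 30.5% of all probe sets. With centred arrays the median was -0.29 for vesicle traffic, and that of the UDP-glycosyltransferases turned to 0.26. ATG8H, of the ATG8 proteins that coat autophagosomes, read 336 and 324 in the controls and 1574 and 549.5 after heat (1.42 ± 0.51, adjusted p = 0.2), with heated replicates far apart. In the sugar transporter list SWEET1 pointed the other way from SWEET2, from 511 and 429.5 to 1484 and 1300.4 (1.51 ± 0.37, adjusted p = 0.079), and did not pass.

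**Figure D5:**
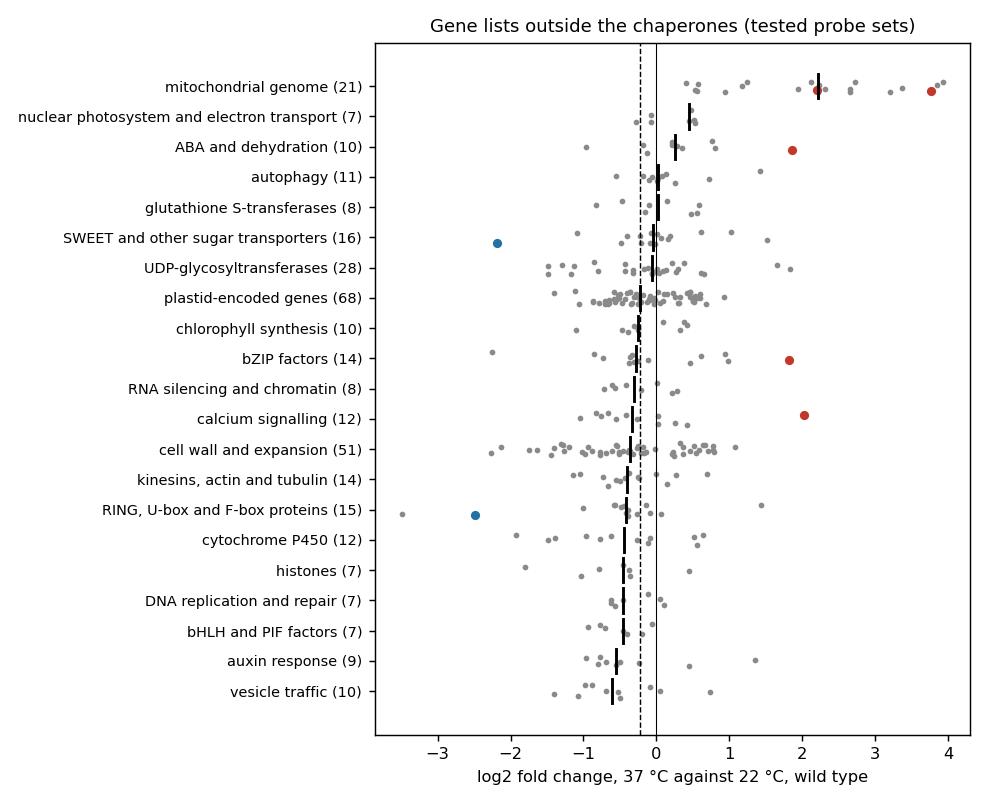
Log2 fold change of heat for each tested probe set of the lists outside the chaperones with 7 or more tested members, with the number tested in brackets, black bars for list medians, red for higher and blue for lower calls, and grey for members that did not pass. The dashed line marks the median of all tested probe sets at -0.22, and the mitochondrial list, at 2.21, has the median furthest from it among these lists, the chaperones not being plotted.

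Called genes were also described by length and position. Genes with a higher call had a median length of 1862 bp over 138 loci in the RefSeq table, those with a lower call 2206 bp over 47, and all tested loci 2268 bp over 8670. A locus annotated as a transcribed pseudogene, AT3G17110, was among the rises, at 61.1 and 12.3 in the controls and 647 and 996 after heat (3.77 ± 0.42, limma adjusted p = 0.0017). In 2 cases called loci were next to each other among protein-coding genes. AT1G75980 rose by 2.39 while its neighbour AT1G75990 fell by 2.24, and AT4G21310 rose by 1.81 beside HSA32. The first pair moved in opposite directions.

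Whether the knockout shoots answered heat differently was tested as an interaction over all probe sets, and in limma 0 of 15919 passed (0%). The smallest adjusted p was 0.42, for HSA32. Of the 15919, 88 had an unadjusted p under 0.05, a share below the 0.05 that evenly spread p-values would give. HSA32, a protein needed for lasting acquired heat tolerance, is the gene disrupted in the mutant. Even its interaction of -6.39 ± 0.80 did not pass, so the count of 0 does not show that the genotypes answered alike. Of the 293 higher probe sets 292 had a positive log2 fold change in the knockout, and 113 of the 113 lower ones a negative one. Over all tested probe sets the knockout median was -0.26, so a value below 0 was already the commoner sign. The share of all probe sets with the same sign in both genotypes was not counted. The estimate of the spread is shared between the genotypes, and their arrays are separate. For the rises named above, the knockout values include AT1G72660 at 7.22 ± 0.44 and TET2 at 3.28 ± 0.33.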

How the data were processed

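Biotin-labelled total RNA was hybridised to 1-colour ATH1 arrays, per the labels. For each array the authors deposited linear intensities, 1 for every probe set. The sources used here do not name the algorithm that made them. Their 2% trimmed means lay at 500.04 to 500.07 on the 8 arrays, so the deposited scaling was kept. Values were analysed as log2(signal + 29), which understates changes of dim genes. The 64 control probe sets and the dimmest 30% (mean signal up to 61.7) were left out.

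A mean per group was fitted over all 8 arrays with limma 3.58.1 under R 4.3.3, using its variance trend, 4 residual degrees of freedom and Benjamini-Hochberg adjustment over 15919 probe sets at 0.05, two-sided. Errors after ± are limma standard errors. The number of arrays, 2 per group, limits the precision.

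Genes were named from the platform annotation, updated through a RefSeq gene table. Of the tested probe sets 327 had several genes and 6802 none paired here. Genes named were the 20 highest and 20 lowest called outside the chaperones, the 10 brightest calls each way, up to 4 members per list, HSA32 and, chosen after values were seen, all calls with a symbol. The ranked calls and the calls with a symbol had to have heated arrays that did not overlap the controls, as all calls did. Where several probe sets read a locus, the brightest stood for it. Lists were matched by symbol, and matches of another function were removed. Most genes with a locus number only are therefore outside the lists. The members, lists and rules were chosen with earlier results of these data known.

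The fit was tested on simulated data. The 21 alternatives changed the offset, filter, scaling, moderation, replicate block or arrays used.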

Additional observations from a re-analysis of the deposited data

Results flagged for a closer look

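In 3 of the named genes both heated arrays lay above both controls in wild type and below both in the knockout. The difference was tested as an interaction in limma, knockout minus wild type, and did not pass over all probe sets in any of them. HSA32, the gene disrupted in the mutant, read 1125 and 1247 in the knockout controls and 378 and 589 after heat, and its interaction was -6.39 ± 0.80 (adjusted p = 0.42). AT1G14950 read 71.9 and 106 in wild-type controls and 129 and 133 after heat, and 149.0 and 111 against 32.4 and 17.4 in the knockout, with an interaction of -2.02 ± 0.49 (adjusted p = 1.00). SWEET14 was dim, at 57.7 and 20.4 against 79.7 and 133 in wild type and 105 and 83.3 against 78.3 and 82.9 in the knockout, with an interaction of -1.18 ± 0.56 (adjusted p = 1.00).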

How the results depend on the processing

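Against 293 higher and 113 lower probe sets, the wild-type arrays alone gave 147 and 8, with 2 residual degrees of freedom. Median centring gave 47 lower calls and a median log2 fold change of 0.10 in place of -0.22, and quantile normalization a median of -0.058. Leaving out 1 array gave 151 to 473 higher and 9 to 841 lower, and leaving out both replicate 1 arrays of wild type gave 485 lower. The cause was not tested. Other settings (offset 7.25 or 116, no filter or the dimmest 50% removed, robust moderation, no variance trend) kept both counts within 1.5 times, and no called value changed sign. Of 216 named values 65 passed. The most calls lost were 34 without control replicate 2 and 32 with wild-type arrays alone, while 51 values that did not pass changed sign under some setting. The labels give equal replicate numbers and no shared batch. Deviations of same-numbered arrays correlated at 0.54 in wild type and 0.52 in the knockout between temperatures, and at -0.35 and -0.39 between genotypes. A replicate block within each genotype gave 777 higher and 1602 lower, among them 15 of the 21 mitochondrial probe sets (2 without the block) and 9 of the 51 cell wall genes (0 without it), and one over all arrays 241 and 49. The crossed pairing, chosen after seeing the data, gave 589 and 817. Promoter motifs, which were planned, were not analysed here. No detection calls were used, so dim genes have no stated background.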

Other observations

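Probe sets with no gene paired with them here held 146 of the 293 higher and 66 of the 113 lower calls, and took 7.05% and 8.08% of all signal on the heated arrays against 0.854% and 0.685% on the controls. The 2 highest of them changed by 9.26 ± 0.35 and 8.94 ± 0.44 on the log2 scale in limma. The highest read 12.4 and 10.5 in the controls and 21996 and 27805 after heat, and the controls of the second were 33.5 and 5.2. These controls lie near or under the offset of 29, so the size of both changes depends on it. Of the 293 higher calls 18 had a control mean under the offset. The 2 lowest changed by -4.60 ± 0.50 and -3.76 ± 0.49, the first from 3675 and 6483 to 262 and 112. As in all calls, the heated arrays of these probe sets do not overlap the controls.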
